A study of Mus musculus with 15 samples.

Results

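The genes described here encode 8 proteins through which DCs and monocytes can steer naïve T cells toward regulatory T cells (Tregs). They are the integrin subunits Itgb8 and Itgav, the cytokine Tgfb1, its receptors Tgfbr1 and Tgfbr2, the retinal dehydrogenase Aldh1a2, and the tryptophan-degrading enzymes Ido1 and Ido2. They were chosen by name for these roles, without a cut on their values, and are 8 of the 38924 genes in the count table. Of the 8, 7 passed the filter on low counts and were tested, and Ido2 did not and is described by its counts.

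The study sorted mononuclear phagocytes (MPs) to match subtypes across tissues and species, and RNA-seq libraries of 5 murine subtypes with 3 replicates each were analysed here. Splenic CD8+ DCs (the DC1 lineage), splenic CD4+ DCs (DC2) and splenic Ly6C+ monocytes were compared with CD103+ DCs (DC1) and CD11b+ DCs (DC2) from the lymph nodes (LNs) draining the lung. All came from untreated, naïve female C57BL/6 mice without a genetic change, aged 6 to 8 weeks by the sample descriptions and 6 to 10 weeks by the methods, and each library pooled 5 mice. Collagenase D was used on both organs, which came from separate cohorts of mice, and a gate for high MHC class II was applied to the LN DCs alone, so that organ, cohort and gate cannot be told apart. DCs were enriched on CD11c beads and monocytes on CD11b beads before sorting, a further difference between these cell types.

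TGF-β is secreted in a latent complex, held inactive by its own propeptide. The integrin αvβ8, a dimer of the products of Itgav and Itgb8, binds that propeptide and frees the cytokine, which then signals through a type II receptor (Tgfbr2) that recruits and activates a type I receptor (Tgfbr1). Active TGF-β induces Foxp3 in naïve T cells, retinoic acid made by RALDH2 (Aldh1a2) strengthens that induction, and IDO enzymes turn tryptophan into kynurenines that act on T cells. CD103+ DCs that migrate from mucosal tissues to LNs are the DCs best known for this set of functions.

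The libraries held 4531243 to 10233914 counts on genes. More genes were detected in the LN libraries (16897 to 17693) than in the splenic ones (15222 to 16438), and 24.7% to 30.7% of unique alignments lay on no gene in LN libraries against 17.6% to 28.4% in splenic ones. The part of these measures in the organ differences was not tested. Levels are given as CPM, counts scaled to library size with TMM factors, with means ± SD of 3 libraries, and levels of different genes are compared only as TPM, which divides by exon length. The sort antigens followed the labels in part. Cd8a was at 441 ± 161 CPM in splenic CD8+ cells and Cd4 at 145 ± 51.0 CPM in splenic CD4+ cells, Itgam (CD11b) was at 110 ± 17.8 CPM in LN CD11b+ cells against 2.56 ± 1.38 CPM in LN CD103+ cells, and Ly6c2 was at 825 ± 167 CPM in monocytes. Itgae, which encodes CD103, was at 27.2 ± 10.8 CPM in LN CD103+ cells and 4.25 ± 2.38 CPM in LN CD11b+ cells, and it was higher in splenic CD8+ DCs (107 ± 32.0 CPM). H2-Ab1, an MHC class II gene, was at 1766 ± 1248 CPM in LN CD103+ cells and 7374 ± 2434 CPM in the LN CD11b+ libraries. It was higher in splenic CD8+ and CD4+ DCs, at 19138 ± 1938 and 15905 ± 4596 CPM. The gate for high MHC class II was set on protein among LN cells, so this RNA comparison of organs does not bear on it. Itgax (CD11c) was also lower in the LN (101 and 292 CPM against 541 and 853 CPM). The LN libraries had more counts on T cell markers. Summed over 7 of them, LN CD103+ libraries held 113 to 137 CPM and LN CD11b+ libraries 73.6 to 109 CPM, against at most 7.99 CPM in a splenic DC library and 2.63 CPM in a monocyte library, with Cd3e, Trac and Bcl11b at 0 in monocytes. By the paper, the sort was gated on live single cells that were positive for CD45 and negative for lineage markers, and its reagents include an antibody to mouse CD3. The part of T cells in the levels below was not tested. The 4 Treg markers summed to 90.6 to 108 CPM in LN CD103+ and 182 to 217 CPM in LN CD11b+ libraries against 6.31 to 17.9 CPM in the spleen, most of it from Il2ra (86.0 and 181 CPM). Foxp3, the defining gene of Tregs, was at 8.57 ± 1.16 CPM in LN CD103+ cells, 6.42 ± 2.42 CPM in LN CD11b+ cells, 7.38 ± 0.975 CPM in splenic CD8+ cells, 5.81 ± 2.33 CPM in their splenic CD4+ counterparts and 11.6 ± 1.25 CPM in monocytes. In bulk libraries of sorted cells, fewer expressing cells and less RNA per cell cannot be told apart.

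The 8 genes did not move as a unit. Itgb8 and Aldh1a2 were far higher in the LN DCs than in a splenic subtype, Tgfb1, Itgav, Tgfbr1 and Tgfbr2 had their highest means in monocytes, and Ido1 and Ido2 were rare throughout with their highest means in LN CD103+ DCs. Between LN CD103+ and splenic CD8+ DCs, 6 of the 7 tested genes passed an adjusted p of 0.05, where 45.6% of all 14456 tested genes did (23.8% higher in the LN and 21.8% lower). Itgb8, Aldh1a2 and Ido1 were higher in the LN, and Itgav, Tgfb1 and Tgfbr2 were lower. Between LN CD11b+ and splenic CD4+ DCs, 4 of 7 passed against 33.1% of all genes (19.3% higher and 13.8% lower), with Itgb8 and Aldh1a2 higher and Itgav and Tgfb1 lower in the LN. The median log2 fold change of the 7 genes was 0.57 in the DC1 comparison and 0.06 in the DC2 comparison, beside 0.00 and 0.05 over all genes tested.

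**Figure D1:**
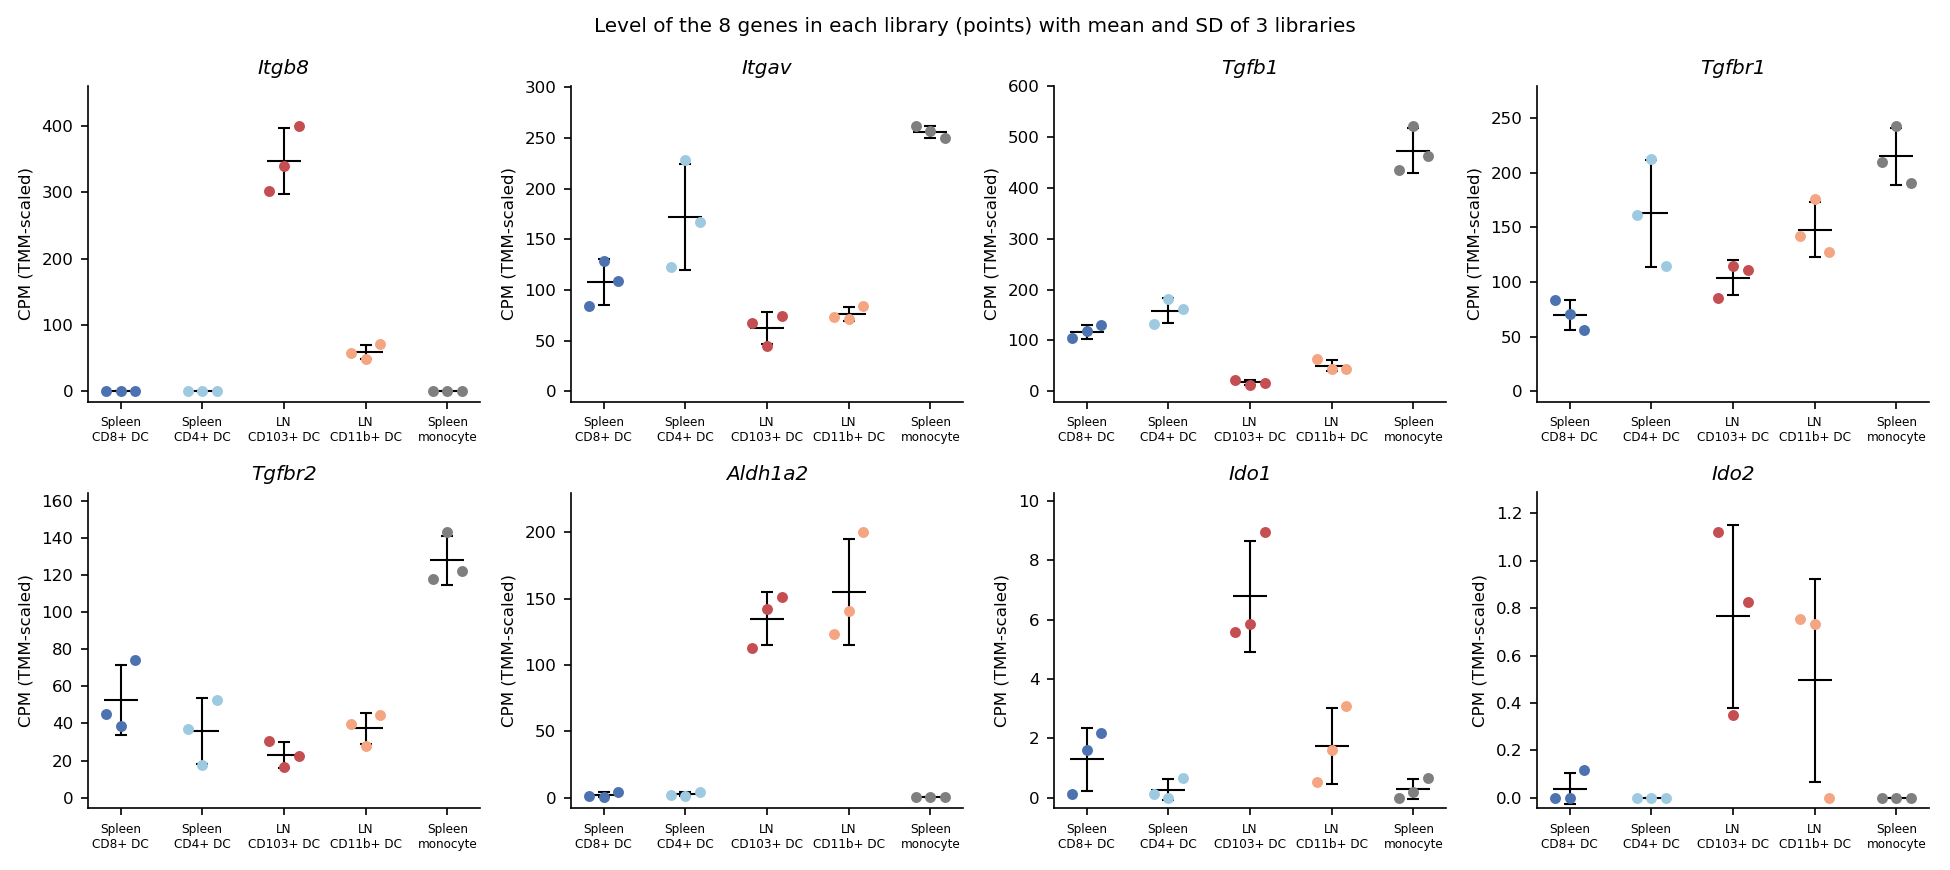
TMM-scaled CPM (y axis) of each of the 8 genes in the 5 subtypes (x axis), with 1 point per library and a black bar with whiskers for the mean ± SD of 3 libraries. The Itgb8 and Aldh1a2 points of the LN DCs stand far above the splenic ones, while Tgfb1, Itgav and Tgfbr2 peak in the monocytes, and the axes of Ido1 and Ido2 end near 10 and 1.2 CPM.

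Within the LN, Itgb8 was higher and Tgfb1 lower in CD103+ than in CD11b+ DCs (2 of 7 genes, where 12.9% of all genes passed, 5.22% higher and 7.73% lower). Within the spleen, Itgav and Tgfbr1 were lower in CD8+ than in CD4+ DCs (2 of 7, against 27.4% of all genes, 13.1% higher and 14.4% lower). Splenic monocytes exceeded splenic CD8+ DCs in Itgav, Tgfb1, Tgfbr1 and Tgfbr2 and were below them in Aldh1a2 (5 of 7, against 42.1% of all genes, 20.4% higher and 21.7% lower). Against splenic CD4+ DCs, monocytes were higher in Itgav, Tgfb1 and Tgfbr2 and lower in Aldh1a2 (4 of 7, against 48% of all genes, 23.8% higher and 24.2% lower). With 7 genes these counts are a description of the genes and no more. Monocyte libraries also held neutrophil markers, 7 of which summed to 134 to 203 CPM against at most 1.62 CPM in a DC library, with Ltf at 49.8 CPM, Camp at 25.3 CPM, Mpo at 3.04 CPM and Ly6g at 0.219 CPM. That sum includes S100a8 (41.9 CPM) and S100a9 (37.9 CPM), which the paper lists as signature genes of monocytes. The sort was gated on lineage-negative cells, and the reagents of the paper include antibodies to mouse Ly6G and Gr1. The part of neutrophils in the monocyte levels was not tested. Comparisons that share a subtype share its libraries.

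**Figure D2:**
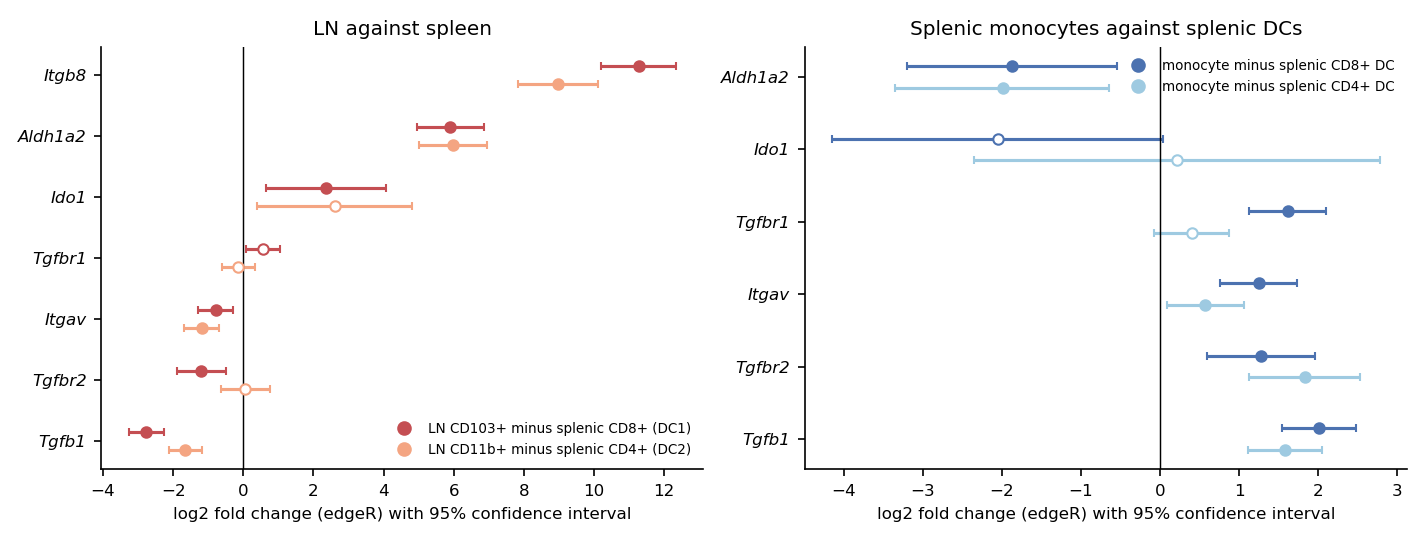
Log2 fold change from edgeR (x axis) with its 95% confidence interval for the tested genes (y axis), filled where the adjusted p was below 0.05. On the left, LN DCs against splenic DCs of the same lineage, with Itgb8 and Aldh1a2 far to the right and Tgfb1 to the left in both lineages. On the right, splenic monocytes against either splenic DC, without Itgb8, which was at or below 3 counts in those groups.

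Itgb8 (ENSMUSG00000025321, GRCm38/mm10 chromosome 12 from 119158022 to 119238802, minus strand) encodes β8, which pairs only with αv. It was at 301, 339 and 400 CPM in the LN CD103+ libraries and at 57.0, 49.1 and 71.2 CPM in the LN CD11b+ libraries. In the spleen, 1 CD8+ library had 3 counts, 1 CD4+ library had 2 counts, and the other splenic libraries, monocytes included, had 0. The LN subtypes overlapped neither each other nor any of the 9 splenic libraries. LN CD103+ DCs exceeded LN CD11b+ DCs by 5.86-fold (log2 fold change 2.55, SE 0.29, adjusted p = 1.30e-05), and this comparison does not rest on groups near 0.

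Against the 5 counts in all 9 splenic libraries, the LN CD103+ mean was 4652-fold higher (95% counting interval 1994 to 14328) and the LN CD11b+ mean 793-fold higher (340 to 2443). Without the splenic CD8+ replicate 2, which held 3 of those 5 counts, the ratios were 10346 and 1764. Monocytes had no count, which puts LN CD103+ DCs at least 2654-fold and LN CD11b+ DCs at least 453-fold higher, taking 3 counts over the 3 monocyte libraries as the floor (0.131 CPM), and at least 1466-fold and 250-fold higher without monocyte replicate 2, the deepest library. Between LN CD11b+ and splenic CD4+ DCs the ratio was 580 (161 to 4790), and without splenic CD4+ replicate 1 the LN level was at least 234-fold higher. The fitted log2 fold changes were 11.27 (SE 0.51, adjusted p = 1.29e-10) for DC1 and 8.96 (SE 0.54, adjusted p = 4.03e-09) for DC2. They ranked as the 3rd and the 26th highest of 14456, a rank that rests on very few splenic counts. Without splenic CD8+ replicate 2 the former was 14.28, and without splenic CD4+ replicate 1 the latter was 11.74. Whether the organ difference was larger in DC1 could not be resolved with both splenic groups this low (difference 2.31, 95% confidence interval -1.13 to 5.76, adjusted p = 0.413). On limma with log2(TPM + 1) that difference passed (2.37, adjusted p = 1.71e-04). Splenic means of 0.0284 TPM (CD8+) and 0.02 TPM (CD4+) stay near 0 on that scale, so this value mostly restates the LN comparison and does not resolve the question. With a library left out, the edgeR difference ran from -0.47 (without splenic CD4+ replicate 1) to 5.34.

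The promoter window of Itgb8, 250 bases before to 50 bases after the RefSeq start, is shown because the gene went from counts near 0 in the spleen to a mean of 347 CPM in LN CD103+ cells. It covers chr12:119238227-119238526 of GRCm38.p6 on the minus strand, 5′ to 3′. The RefSeq start lies 526 bases inside the gene as it was counted.
Itgb8: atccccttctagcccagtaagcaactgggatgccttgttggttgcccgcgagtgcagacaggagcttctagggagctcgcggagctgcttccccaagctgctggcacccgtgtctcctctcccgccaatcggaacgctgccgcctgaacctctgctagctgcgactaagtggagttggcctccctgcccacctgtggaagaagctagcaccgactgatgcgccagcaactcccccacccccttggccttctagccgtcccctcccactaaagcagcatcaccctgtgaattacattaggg
Of 6 short motifs searched on both strands, none was found in this window, which therefore has no capitals. They were TATAAA (the TATA box, in 13.6% of 32851 RefSeq windows of this length), GGGCGG (the GC box, 35.7%), the κB consensus (8.46%), TGANTCA (AP-1, 7.81%), AGGTCA (a hexamer bound by retinoic acid receptors, 16.3%) and TGACGTCA (the cyclic AMP response element, 1.79%).

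Itgav (ENSMUSG00000027087, chromosome 2 from 83724397 to 83806916) encodes αv, the partner of β8, and also of β1, β3, β5 and β6. Its level ran against that of Itgb8. Splenic CD8+ libraries were at 84.4, 129 and 109 CPM, splenic CD4+ libraries at 123, 228 and 167 CPM, and monocytes at 262, 257 and 250 CPM. LN CD103+ libraries were at 67.8, 44.7 and 74.1 CPM and LN CD11b+ libraries at 72.8, 71.3 and 83.8 CPM. Each LN subtype lay below its splenic counterpart without overlap. The log2 fold change was -0.79 for DC1 (SE 0.23, adjusted p = 0.00946) and -1.18 for DC2 (SE 0.23, adjusted p = 6.79e-04). The DC1 call was lost without LN CD103+ replicate 2, the lowest library (-0.60, adjusted p = 0.0658). Of its exon bases, 5.9% also belong to Gm13684, and reads there were counted for both genes.

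In order, Itgav was highest in monocytes (256 ± 6.26 CPM), then splenic CD4+ DCs (172 ± 52.6 CPM), splenic CD8+ DCs (108 ± 22.5 CPM), LN CD11b+ DCs (75.9 ± 6.81 CPM) and LN CD103+ DCs (62.2 ± 15.5 CPM). Monocytes and splenic CD4+ DCs were just separated (log2 fold change 0.57, adjusted p = 0.0485), and leaving out any of 11 of the 15 libraries ended that call, with adjusted p values from 0.00939 to 0.207 over the 15. Upper quartile scaling ended it too (0.45, adjusted p = 0.109), as did RLE factors (adjusted p = 0.072), DESeq2 (adjusted p = 0.065) and a fit of these 2 subtypes alone (adjusted p = 0.0821). Splenic CD4+ exceeded splenic CD8+ DCs (the latter minus the former -0.68, adjusted p = 0.0358), with overlapping libraries, and the call was lost without splenic CD4+ replicate 2 (-0.43, adjusted p = 0.203), splenic CD8+ replicate 1 (-0.53, adjusted p = 0.146) or splenic CD8+ replicate 3 (-0.69, adjusted p = 0.0813), and in a fit of the splenic DCs alone (adjusted p = 0.106). The remaining neighbours were not separated. Splenic CD8+ DCs lay above LN CD11b+ DCs by 0.50 on the log2 scale (95% confidence interval 0.02 to 0.99), and LN CD11b+ above LN CD103+ DCs by 0.29 (-0.20 to 0.78).

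Per exon length, the β8 transcript outnumbered its partner in LN CD103+ DCs. Itgb8 was at 70.9 ± 11.5 TPM and Itgav at 13.1 ± 3.52 TPM there, a ratio of 4.31, 7.36 and 5.25 in the 3 libraries. In LN CD11b+ DCs the order was the other way in each library, with 12.9 ± 3.28 TPM of Itgb8, a mean of 17 TPM (SD 2.60) of Itgav and ratios of 0.760, 0.670 and 0.825. Of the other β subunits that can pair with αv, Itgb5 was at 76.9 ± 3.38 TPM in LN CD103+ DCs, 50.6 ± 10.8 TPM in LN CD11b+ DCs and 160 ± 21.5 TPM in monocytes, against 6.44 ± 2.83 TPM in splenic CD8+ and 15.7 ± 2.21 TPM in splenic CD4+ DCs. Itgb3 stayed between 0.722 and 5.89 TPM on average. Itgb6, whose product also activates TGF-β as a dimer with αv, had no count in the 15 libraries. Itgb1, which pairs with many α subunits, was at 350 ± 19.6 TPM in LN CD103+ and 291 ± 41.2 TPM in LN CD11b+ DCs.

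**Figure D3:**
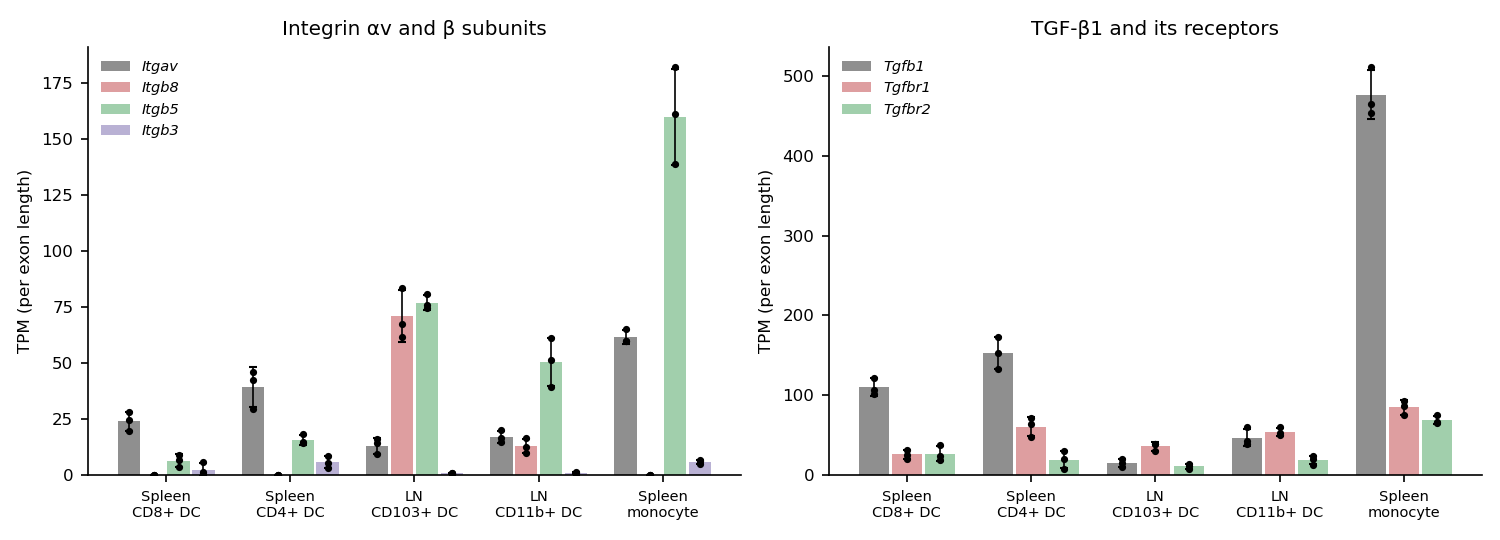
TPM (y axis), which allows genes to be compared, in the 5 subtypes (x axis), with bars for the mean, whiskers for the SD and points for the 3 libraries. On the left, Itgb8 reached 70.9 TPM in LN CD103+ DCs, above Itgav at 13.1 TPM and near Itgb5 at 76.9 TPM. On the right, Tgfb1 fell from 477 TPM in monocytes to 15.3 TPM in LN CD103+ DCs, where Tgfbr1 was at 35.9 TPM.

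Tgfb1 (ENSMUSG00000002603, chromosome 7 from 25687002 to 25705077), the ligand, was lowest where Itgb8 was highest. LN CD103+ libraries were at 22.7, 12.1 and 16.9 CPM, LN CD11b+ libraries at 63.0, 44.1 and 43.1 CPM, splenic CD8+ libraries at 104, 118 and 131 CPM, splenic CD4+ libraries at 132, 181 and 162 CPM, and monocytes at 435, 522 and 462 CPM. None of these ranges overlapped another. The LN fell below the spleen by 2.77 on the log2 scale in DC1 (SE 0.24, adjusted p = 2.82e-08) and by 1.65 in DC2 (SE 0.23, adjusted p = 1.55e-05). The organ difference was larger in DC1, with a difference of -1.11 (SE 0.32, adjusted p = 0.0287, where 11.2% of all genes passed this test, 5.17% upward and 6.03% downward). Of the 7 genes only Tgfb1 passed it in this fit, and with the replicate number as a block Tgfbr2 passed as well (-1.28, adjusted p = 0.0285).

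That difference between lineages was close to the threshold. It was lost without LN CD103+ replicate 2 (adjusted p = 0.0929) or replicate 3 (0.0618), LN CD11b+ replicate 1 (0.0963), splenic CD4+ replicate 1 (0.0608), or splenic CD8+ replicate 2 (0.0526) or replicate 3 (0.0633), with estimates from -1.37 to -0.90 over all 15 omissions, and also in a fit of only the subtypes compared (-1.11, adjusted p = 0.0548). Within the LN, CD103+ DCs were lower than CD11b+ DCs by 1.55 (SE 0.23, adjusted p = 1.53e-04), while the splenic DCs were not separated (splenic CD8+ minus CD4+ -0.43, 95% confidence interval -0.89 to 0.03, adjusted p = 0.155). Monocytes exceeded splenic CD4+ DCs by 2.99-fold (adjusted p = 1.27e-05) and splenic CD8+ DCs by 4.03-fold (adjusted p = 7.61e-07). Per length, Tgfb1 at 477 ± 30.6 TPM stood at the 98.1st percentile of tested genes in monocytes, and at 15.3 ± 4.86 TPM at the 57.6th in LN CD103+ DCs. The isoform genes Tgfb2 and Tgfb3 did not exceed 2.83 TPM on average in a subtype.

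The promoter window of Tgfb1 is shown for contrast with Itgb8, since the genes moved in opposite directions. It covers chr7:25686752-25687051 of GRCm38.p6 on the plus strand, and capitals mark matches to GGGCGG on either strand and to the κB consensus.
Tgfb1: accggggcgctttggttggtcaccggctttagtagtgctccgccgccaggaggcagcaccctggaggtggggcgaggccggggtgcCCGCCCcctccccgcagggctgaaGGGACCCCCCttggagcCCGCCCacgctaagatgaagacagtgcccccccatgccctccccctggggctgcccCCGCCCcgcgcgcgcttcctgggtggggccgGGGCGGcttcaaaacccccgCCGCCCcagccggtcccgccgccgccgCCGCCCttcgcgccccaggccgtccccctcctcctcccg
The window held GGGCGG on one of its strands at 6 places and the κB consensus at 1 place, and the other motifs were not found. It is 77.0% G and C. Motifs did not follow direction over the other windows. None was found for Tgfbr2, which was lower in the LN in DC1. GGGCGG was found at 1 place for Itgav and at 2 places for Tgfbr1, and no other motif was found for either.

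Tgfbr1 (ENSMUSG00000007613, chromosome 4 from 47353222 to 47414931), the type I receptor kinase that phosphorylates SMADs, was lowest in splenic CD8+ DCs. Splenic CD8+ libraries were at 83.8, 70.3 and 56.2 CPM and LN CD103+ libraries at 85.5, 115 and 111 CPM. Splenic CD4+ libraries were at 161, 213 and 115 CPM, LN CD11b+ libraries at 142, 176 and 127 CPM, and monocytes at 210, 243 and 191 CPM. Splenic CD8+ DCs lay below the other 4 subtypes without overlap. Within the spleen, CD8+ DCs were lower than CD4+ DCs (log2 fold change -1.22, SE 0.23, adjusted p = 6.28e-04), and monocytes exceeded CD8+ DCs by 3.06-fold (adjusted p = 1.48e-05).

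LN CD103+ minus splenic CD8+ DCs missed the threshold narrowly for Tgfbr1 (log2 fold change 0.57, 95% confidence interval 0.09 to 1.04, adjusted p = 0.0502). It passed with RLE factors (0.61, adjusted p = 0.0346), with DESeq2 (0.61, adjusted p = 0.0245), with filterByExpr (adjusted p = 0.0461) or in a fit of these 2 subtypes alone (0.57, adjusted p = 0.0333). The replicate number as a block also made it pass (0.58, adjusted p = 0.0168), though libraries of these 2 subtypes were not taken as paired. Leaving out a library made it pass in 6 of 15 cases, with adjusted p values from 0.0276 to 0.185 over the 15. In DC2 the organ difference was -0.14 (95% confidence interval -0.61 to 0.34, adjusted p = 0.694). From the highest mean down, the order was monocytes (215 ± 25.9 CPM), splenic CD4+ DCs (163 ± 49.1 CPM), LN CD11b+ DCs (148 ± 25.3 CPM), LN CD103+ DCs (104 ± 15.9 CPM) and splenic CD8+ DCs (70.1 ± 13.8 CPM). No pair of neighbours in that order was separated.

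Tgfbr2 (ENSMUSG00000032440, chromosome 9 from 116087698 to 116175363, minus strand) encodes the type II receptor, which binds the ligand first. Monocytes were at 118, 143 and 122 CPM, splenic CD8+ libraries at 45.3, 38.7 and 74.1 CPM and splenic CD4+ libraries at 37.2, 17.7 and 52.8 CPM. LN CD103+ libraries were at 30.3, 16.5 and 22.4 CPM and LN CD11b+ libraries at 39.9, 28.0 and 44.4 CPM. Monocytes stood above the 12 DC libraries without overlap, and LN CD103+ DCs lay below splenic CD8+ DCs without overlap. The latter difference was -1.20 on the log2 scale (SE 0.33, adjusted p = 0.00640). In DC2 the organ difference was 0.06 (95% confidence interval -0.63 to 0.75, adjusted p = 0.922). The difference between the lineages did not pass (-1.25, 95% confidence interval -2.23 to -0.27, adjusted p = 0.0942). It did with the replicate number as a block (-1.28, adjusted p = 0.0285), without splenic CD4+ replicate 3 (-1.63, adjusted p = 0.0237) and with no filter on low counts (-1.25, adjusted p = 0.00791). Monocytes exceeded splenic CD8+ DCs by 2.43-fold (adjusted p = 0.00369) and splenic CD4+ DCs by 3.56-fold (adjusted p = 1.91e-04).

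Among the DCs, neighbours in the order of Tgfbr2 were not separated, from splenic CD8+ DCs (52.7 ± 18.8 CPM) through LN CD11b+ DCs (37.4 ± 8.48 CPM) and splenic CD4+ DCs (35.9 ± 17.6 CPM) to LN CD103+ DCs (23.1 ± 6.92 CPM). The ratio of Tgfbr1 to Tgfbr2 per length was 1.23 ± 0.0793 in monocytes and 1.08 ± 0.454 in splenic CD8+ DCs. It was 2.07, 5.09 and 3.63 in LN CD103+ libraries, above the 1.35, 1.33 and 0.556 of splenic CD8+ libraries. LN CD11b+ libraries were in the same range, at 2.60, 4.61 and 2.09. In splenic CD4+ libraries it ran from 1.59 to 8.80, so that a mean says little there.

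Aldh1a2 (ENSMUSG00000013584, chromosome 9 from 71215789 to 71296243), whose product RALDH2 oxidises retinal to retinoic acid, was also far higher in the LN DCs than in the spleen, with overlapping levels in the LN subtypes. LN CD103+ libraries were at 113, 142 and 151 CPM and LN CD11b+ libraries at 123, 141 and 200 CPM. Splenic CD8+ libraries were at 1.31, 0.809 and 4.47 CPM, splenic CD4+ libraries at 2.32, 1.02 and 4.0 CPM, and monocytes at 0.197, 0.680 and 0.789 CPM. The LN libraries overlapped each other and none of the splenic ones. The organ difference was 61.7-fold in DC1 (log2 fold change 5.90, SE 0.46, adjusted p = 7.74e-09) and 63.3-fold in DC2 (5.97, SE 0.46, adjusted p = 2.25e-08). Without splenic CD8+ replicate 3, which had the highest splenic level, the DC1 value was 6.96. The lineages differed in it by -0.07 (95% confidence interval -1.39 to 1.25, adjusted p = 0.977), and LN CD103+ minus CD11b+ DCs by -0.19 (-0.92 to 0.54, adjusted p = 0.797).

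Monocytes had less Aldh1a2 than splenic DCs, with log2 fold changes of -1.87 against CD8+ DCs (SE 0.63, adjusted p = 0.0235) and -1.99 against CD4+ DCs (SE 0.64, adjusted p = 0.0164). At these levels single libraries decided the call. The first was lost without splenic CD8+ replicate 3 (-0.82, adjusted p = 0.324), monocyte replicate 1 (-1.60, adjusted p = 0.0757) or monocyte replicate 2 (-2.01, adjusted p = 0.0602), with limma (-0.88, adjusted p = 0.112) and in a fit of these 2 subtypes alone (adjusted p = 0.0636). The second was lost without splenic CD4+ replicate 3 (-1.50, adjusted p = 0.0910) or monocyte replicate 1 (-1.72, adjusted p = 0.0528). Per length, Aldh1a2 reached 135 ± 21.3 TPM in LN CD103+ and 165 ± 51.9 TPM in LN CD11b+ DCs, the 93.2nd and 94.6th percentiles of tested genes. The other retinal dehydrogenases were far lower, Aldh1a3 at no more than 0.864 TPM on average and Aldh1a1 at no more than 0.104 TPM. Stromal cells of LNs also use Aldh1a2. Of 9 stromal and endothelial markers, Col1a1, Col1a2, Col3a1 and Pdgfra had low means that were higher in the LN DCs than in the splenic DCs. Col1a1 was at 0.894 and 0.911 CPM in LN CD103+ and CD11b+ DCs against 0.0899 and 0 CPM in splenic CD8+ and CD4+ DCs, Col1a2 at 1.09 and 2.10 against 0.564 and 0 CPM, Col3a1 at 1.42 and 1.90 against 0.398 and 0 CPM, and Pdgfra at 0.351 and 0.892 CPM against 0 in both. Pdpn was at 0.0855 and 0 CPM against 0 in both, and Pdgfrb at 0.595 and 1.5 against 0.483 and 0.447 CPM, with its highest mean in monocytes (5.57 CPM). The sum over the 9 markers ran the other way, from 6.96 to 20.8 CPM in LN and 56.3 to 100 CPM in splenic DC libraries, because of the endothelial gene Pecam1 (73.1 and 83.3 CPM in the splenic DCs). The sort was gated on CD45+ cells, and the part of stromal or endothelial cells in the Aldh1a2 level was not tested.

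The promoter window of Aldh1a2 covers chr9:71215539-71215838 of GRCm38.p6 on the plus strand and is given beside that of Itgb8, as the genes moved together between the organs.
Aldh1a2: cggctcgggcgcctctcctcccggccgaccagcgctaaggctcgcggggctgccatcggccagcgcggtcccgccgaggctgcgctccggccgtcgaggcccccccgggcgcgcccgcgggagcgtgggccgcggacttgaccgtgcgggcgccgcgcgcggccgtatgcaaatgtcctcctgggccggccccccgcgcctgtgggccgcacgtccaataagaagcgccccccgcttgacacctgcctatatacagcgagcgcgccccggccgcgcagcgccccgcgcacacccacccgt
None of the 6 motifs was found here either. The window is 78.0% G and C with 50 CpG dinucleotides, against 60.7% and 13 in the Itgb8 window and medians of 52.7% and 7 over all windows.

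Ido1 (ENSMUSG00000031551, chromosome 8 from 24584136 to 24597009, minus strand), the first and rate-limiting enzyme of the kynurenine pathway outside the liver, was rare. It had 218 counts in the 15 libraries, of which 144 fell in LN CD103+ DCs. These libraries were at 5.58, 5.85 and 8.95 CPM, LN CD11b+ libraries at 0.538, 1.61 and 3.09 CPM, splenic CD8+ libraries at 0.120, 1.62 and 2.18 CPM, splenic CD4+ libraries at 0.129, 0 and 0.666 CPM, and monocytes at 0, 0.194 and 0.658 CPM. LN CD103+ DCs lay above the 12 other libraries without overlap. Against splenic CD8+ DCs the log2 fold change was 2.36 (SE 0.82, adjusted p = 0.0240), and it was lost without LN CD103+ replicate 3 (2.12, adjusted p = 0.0779), splenic CD8+ replicate 1 (1.82, adjusted p = 0.0782) or splenic CD8+ replicate 2 (2.51, adjusted p = 0.0515), and moved to 2.97 without splenic CD8+ replicate 3.

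LN CD11b+ against splenic CD4+ DCs did not pass for Ido1 (2.61, 95% confidence interval 0.39 to 4.82, adjusted p = 0.0663), nor did LN CD103+ against LN CD11b+ DCs (2.02, 0.30 to 3.74, adjusted p = 0.120). With the replicate number as a block, which these subtypes share, both passed (2.63, adjusted p = 0.0246, and 2.29, adjusted p = 0.0239). Both also passed without a filter on low counts (adjusted p = 0.0142 and 0.0245). The former passed with DESeq2 (adjusted p = 0.0365) and without LN CD11b+ replicate 1 (0.0396), splenic CD4+ replicate 3 (0.0285) or splenic CD8+ replicate 1 (0.0402), and the latter with limma (0.0324) and in a fit of the LN subtypes alone (0.0333). The order of means was LN CD103+ (6.79 ± 1.87 CPM), LN CD11b+ (1.75 ± 1.28 CPM), splenic CD8+ (1.30 ± 1.06 CPM), monocytes (0.284 ± 0.338 CPM) and splenic CD4+ DCs (0.265 ± 0.353 CPM), and no neighbours in it were separated. Pooled over replicates, the counting intervals were 5.58 to 7.80 CPM in LN CD103+ cells and 0.0827 to 0.594 CPM in splenic CD4+ cells, the lowest pooled level.

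Ido2 (ENSMUSG00000031549, chromosome 8 from 24531892 to 24576333, minus strand), the paralogue that neighbours Ido1, had 29 counts in all. LN CD103+ libraries had 8, 3 and 5 counts, LN CD11b+ libraries 7, 5 and 0, splenic CD8+ replicate 3 had 1, and the other splenic libraries, monocytes included, had 0. The pooled level was 0.736 CPM in LN CD103+ cells (95% counting interval 0.421 to 1.19) and 0.581 CPM in LN CD11b+ cells (0.30 to 1.02), and at this depth the LN subtypes could not be told apart. Against the 1 count of the 9 splenic libraries, the LN CD103+ mean was 51.4-fold higher (9.22 to 2029) and the LN CD11b+ mean 33.2-fold higher (5.97 to 1313). Without splenic CD8+ replicate 3 they were at least 14.9-fold and 9.64-fold higher. With no count in the monocytes, the 95% counting interval reached up to 0.161 CPM. Per length, Ido1 was at 8.44 ± 2.51 TPM in LN CD103+ DCs and Ido2 at 0.478 ± 0.244 TPM, and Tdo2, whose product catalyses the same step in the liver, did not exceed 0.956 TPM on average in a subtype.

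Other genes of these pathways were taken from 5 lists, of which 88 of 109 genes passed the filter. A gene can pass it through the subtype in which it is high, so counts are over tested genes only. They are read against the shares of all genes that passed, 45.6% in DC1 and 33.1% in DC2, and a share near these is no result about a list. The list of TGF-β activation holds integrin partners, latency proteins and proteases. Of its 18 tested genes, 7 were higher and 2 lower in LN CD103+ than in splenic CD8+ DCs, with a median log2 fold change of 1.33 (1.03 with the gene that had a group at 0 at its bound, all genes 0.00), and 9 were higher and 3 lower in LN CD11b+ than in splenic CD4+ DCs (median 1.69, all genes 0.05). These are 9 of 18 against 45.6% of all genes and 12 of 18 against 33.1%. Plat, tissue plasminogen activator, went from 0.180 to 53.3 CPM in DC1 (log2 fold change 8.20, adjusted p = 9.42e-09), and was at least 87.7-fold higher in LN CD11b+ than in splenic CD4+ DCs. Mmp14, a membrane-anchored protease, was 346-fold higher in the LN in DC1 (95% counting interval 118 to 1679 on 3 splenic counts) and rose by 2.05 in DC2 (adjusted p = 2.31e-05). Itgb5 rose by 3.67 in DC1 (adjusted p = 1.26e-08) and 1.76 in DC2 (adjusted p = 6.54e-05). Thbs1, thrombospondin-1, which can activate latent TGF-β, rose by 5.03 in DC1 (adjusted p = 1.13e-04) and 3.46 in DC2 (adjusted p = 0.00174), though to levels of 15.2 and 13.9 CPM against 636 CPM in monocytes. Mmp9, a secreted gelatinase, fell by 4.18 in DC2 (adjusted p = 1.44e-04). Nrros, which tethers latent TGF-β to the surface of myeloid cells, was lower in the LN in DC1 (-2.09, adjusted p = 1.70e-06) and DC2 (-1.68, adjusted p = 3.01e-05), in LN CD103+ than in LN CD11b+ DCs (-1.73, adjusted p = 9.13e-05) and in splenic CD8+ than in splenic CD4+ DCs (-1.31, adjusted p = 4.90e-04), with 586 CPM in monocytes.

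In the list of TGF-β receptors and signalling, 8 of 22 genes were higher and 5 lower in the LN in DC1 (median 0.31), and 9 were higher and 2 lower in DC2 (median 0.71), or 13 of 22 against 45.6% of all genes and 11 of 22 against 33.1%. Smurf1, a ubiquitin ligase that turns over receptors and SMADs, rose by 2.31 in DC1 (adjusted p = 2.25e-08) and 2.20 in DC2 (adjusted p = 1.14e-07). The co-receptor genes Eng and Tgfbr3 rose in both lineages, Eng to 10.2 CPM in LN CD103+ and 10.7 CPM in LN CD11b+ cells. Smad7, an inhibitory SMAD, was lower in the LN in both lineages (-1.17, adjusted p = 0.00416 in DC1, and -1.47, adjusted p = 8.89e-04 in DC2), and Zfyve9, which brings SMADs to the receptor, was lower in DC1 (-1.45, adjusted p = 1.92e-04), with a DC2 value of -0.05 (adjusted p = 0.908). Monocytes were above splenic CD8+ DCs in 9 genes and below in 3, Tgfbr3 (4.49, adjusted p = 1.63e-05) and Zfyve9 (3.35, adjusted p = 4.16e-09) leading, and above splenic CD4+ DCs in 11 and below in 2, where 42.1% and 48% of all genes passed.

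Of the 32 genes of the retinoic acid list, 18 were tested. In DC1, 7 were higher in the LN and 5 lower (median 0.40), and in DC2 5 were higher and 1 lower (median 0.37). These are 12 of 18 against 45.6% of all genes and 6 of 18 against 33.1%, the latter at the share of all genes. Dhrs3, which reduces retinal back to retinol, rose by 3.36 in DC1 (adjusted p = 3.94e-08) and 1.71 in DC2 (adjusted p = 9.26e-05). Rarb, a retinoic acid receptor gene that is itself induced by retinoic acid, rose by 4.61 (adjusted p = 4.70e-07) and 2.03 (adjusted p = 9.16e-04), to 10.3 and 9.11 CPM. Fabp5, a carrier of retinoic acid and fatty acids, rose by 5.88 (adjusted p = 1.29e-10) and 3.97 (adjusted p = 4.02e-09), to 161 and 378 CPM. The degrading enzymes Cyp26a1, Cyp26b1 and Cyp26c1 stayed below the filter, with 1, 9 and 1 counts in the 15 libraries. Within the spleen, none of the 18 was higher and 5 were lower in CD8+ than in CD4+ DCs in the edgeR test, again at the share of all genes (27.4%), and 8 passed with the replicate number as a block, where 32.1% of all genes did. In monocytes Rara was at 365 CPM, 3.69 above splenic CD8+ DCs on the log2 scale (adjusted p = 4.36e-09).

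In the tryptophan and kynurenine list, 6 of 18 genes were lower and 3 higher in the LN in DC1 (median -0.06), and 4 were lower and 2 higher in DC2 (median -0.06). These counts, 9 of 18 against 45.6% of all genes and 6 of 18 against 33.1%, are near the shares of all genes. Kmo, kynurenine 3-monooxygenase, fell from 295 to 12.9 CPM in DC1 (log2 fold change -4.52, adjusted p = 1.01e-09) and from 339 to 36.0 CPM in DC2 (-3.23, adjusted p = 5.86e-08), and was at 24.1 CPM in monocytes. Ahr, the aryl hydrocarbon receptor that kynurenine can bind, fell by 1.43 in DC1 (adjusted p = 3.26e-05) and by 1.99 in DC2 (adjusted p = 1.79e-06). Kynu, kynureninase, was lower in the LN in DC1 (-0.52, adjusted p = 0.0432) and in DC2 (-0.95, adjusted p = 0.00136), and much lower in monocytes than in splenic CD4+ DCs (-3.85, adjusted p = 4.81e-10). Wars, the tryptophan tRNA ligase, rose by 1.60 in DC1 (adjusted p = 3.72e-04), and its DC2 value was 0.52 (adjusted p = 0.218).

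The last list holds other genes through which DCs attract, restrain or induce Tregs. Of its 12 tested genes, 7 were higher and 2 lower in the LN in DC1 (median 2.24), and 5 were higher and 2 lower in DC2 (median 0.44), where 23.8% of all genes were higher and 21.8% lower in DC1 and 19.3% and 13.8% in DC2. Ccl22, a chemokine for CCR4+ T cells, rose from 10.1 to 1299 CPM in DC1 (6.99, adjusted p = 9.42e-09) and from 1.49 to 656 CPM in DC2 (8.77, adjusted p = 1.06e-08). Pdcd1lg2 (PD-L2) rose by 5.37 in DC1 (adjusted p = 1.84e-09), and its DC2 value was -0.14 (adjusted p = 0.755). Hmox1, heme oxygenase 1, fell by 3.54 in DC1 (adjusted p = 1.44e-07) and by 3.04 in DC2 (adjusted p = 1.13e-06). Il10 and Il12a stayed below the filter, with 48 and 23 counts in the 15 libraries. Ccl22 is also among 6 markers of migratory DCs, which summed to 16312 to 18426 CPM in LN CD103+ and 8516 to 11375 CPM in LN CD11b+ libraries, against 258 to 700 CPM in splenic DC libraries. Maturation and tissue of origin cannot be told apart in this design.

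**Figure D4:**
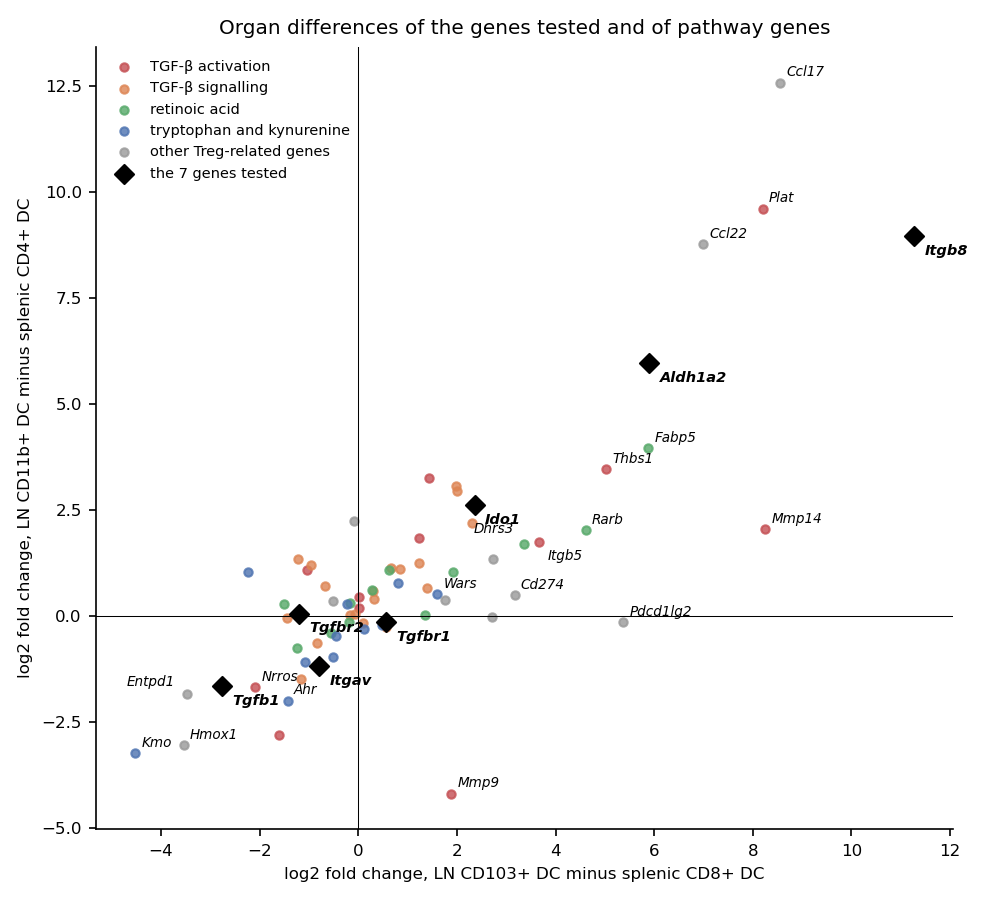
Log2 fold change of LN CD103+ minus splenic CD8+ DCs (x axis) against that of LN CD11b+ minus splenic CD4+ DCs (y axis), for the 7 tested genes (black diamonds) and the 65 pathway genes that were tested and reached 10 CPM on average in some subtype (dots, coloured by list). Itgb8 and Aldh1a2 lie at the upper right near Plat and Ccl22, and Tgfb1 at the lower left near Entpd1, while values of Plat, Ccl17 and Mmp9 depend on groups with no count and are drawn as fitted.

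The genes most alike in pattern were listed by Pearson's r of log2 CPM over the 15 libraries, as a description. The points share subtypes, so r mostly reflects the 5 subtype means. For Itgb8 the 5 closest were Plat (r = 0.995), Npy1r, Rnf152, a gene without a symbol and Slc30a2, all at 0.992 or above, and of these Rnf152 was at 34.7 CPM in LN CD103+ and 9.69 CPM in LN CD11b+ cells. For Aldh1a2 they were Cd63 (r = 0.991), Gm16685, Tmem123, Oprd1 and Fmn1. Cd63 was at 448 CPM in LN CD103+ and 290 CPM in LN CD11b+ cells against at most 9.73 CPM in a splenic subtype mean.

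Tgfb1 was most like Atf6 (r = 0.987), Itgb2, Bin2, Atp13a2 and Pld4, of which Itgb2, the β2 integrin of leukocytes, was at 77.2 CPM in LN CD103+ cells and 1574 CPM in monocytes. Itgav was most like Slc35c1 (r = 0.968), Nr4a1, D1Ertd622e, Bin2 and Rassf5, and so shares Bin2 with Tgfb1. Tgfbr2 was closest to AB124611 (r = 0.979), Sephs2, Cmpk1, Lamtor4 and Eif4ebp1. The closest genes to Tgfbr1 reached lower values, from 0.943 for a gene without a symbol, through Oas1a (0.932), 1700071M16Rik and Syk, to Srd5a3 (0.917). Ido1 was closest to Hc (r = 0.958), Gm17057, Ankib1, Aars and Tap2. Among the 7 genes themselves, r was 0.95 between Itgb8 and Aldh1a2, 0.93 between Itgav and Tgfb1, and -0.90 between Itgb8 and Tgfb1, and for Tgfbr1 it lay between -0.53 and 0.53 with the others.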

How the data were processed

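The 15 murine libraries, 3 for each of 5 sorted subtypes, were assigned to subtypes from their sample titles. According to the methods and the processing notes, the authors aligned Ion Torrent reads of 30 or more bases to mm10 using STAR 2.4.0j and assigned unique alignments to Ensembl genes using featureCounts (Subread 1.5.2), ignoring strand and counting a read over several genes for each. The deposited count table is not normalized, and its columns are the sums of the sequencing runs in all 15 libraries. The TPM values deposited by the authors derive from those counts and exon lengths. Other murine and human libraries of the study were not used here. Between 56.9% and 65.9% of alignments fell on a gene. Symbols from GENCODE vM21 covered 37607 of 38924 identifiers.

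The 14456 genes that exceeded 1 CPM in 3 or more libraries entered the quasi-likelihood test of edgeR 4.0.16 in R 4.3.3, with TMM factors (0.883 to 1.10) and 1 coefficient per subtype (common dispersion 0.0681, 10 residual degrees of freedom). P values were adjusted by Benjamini-Hochberg over all tested genes per comparison, with a threshold of 0.05. Confidence intervals are 95%. Counting intervals are exact Poisson intervals and cover counting error only. A group without a count was set to a floor of 3 counts over the group. The fit was tested on simulated data. Replicates are pools of animals, and p values measure the spread between these pools.

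The members and lists were chosen with earlier results of these data known. By rule, all 8 genes were named, from each list up to 4 genes per comparison with the largest fold change past the threshold among those with at least 10 CPM in 1 subtype, and the 5 most alike genes. Which of the list genes the text describes was settled after their values were seen, as were the genes named for low levels or for contrast. Replicate numbers recur in every subtype. Deviations of same-numbered libraries from their subtype means correlated above 0.1 for each number in 4 of 10 pairs of subtypes, all among DCs (splenic CD8+ with splenic CD4+, splenic CD4+ with either LN DC, and the LN DCs with each other). For these the numbers were taken to pair the libraries, from the data alone. Blocked values are given where they change a call, except for LN CD103+ minus splenic CD4+ DCs, whose blocked values are not reported.

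Alternatives were RLE and upper quartile factors, DESeq2 1.42.0, limma 3.58.1 on log2(TPM + 1), no filter (23169 genes), filterByExpr (13888 genes), the replicate block, a fit of only the subtypes compared, and leaving out each library. Promoter sequences are from RefSeq (GRCm38.p6), with windows for 6 of the 8 genes, Ido1 and Ido2 not among them.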

Additional observations from a re-analysis of the deposited data

Results flagged for a closer look

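The difference between lymph node (LN) and spleen was tested against lineage, as the organ difference of DC1 (LN CD103+ minus splenic CD8+ DCs) minus that of DC2 (LN CD11b+ minus splenic CD4+ DCs). Of the regulatory T cell inducing genes, Tgfb1 passed this test (1 of 7). Of the 88 tested genes of the pathway lists, 24 passed (27.3%), where 11.2% of all genes did, and the 17 given here are those with the largest differences in each list (up to 4) among genes with at least 10 CPM in 1 subtype. All values are log2 differences from edgeR's quasi-likelihood test with Benjamini-Hochberg adjustment over all tested genes, and no explanation was tested.

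The organ difference of Tgfb1 was larger in DC1 by -1.11 (adjusted p = 0.0287), from -2.77 in DC1 and -1.65 in DC2, and was lost in 6 of 15 fits with a library left out (highest adjusted p = 0.0963, without LN CD11b+ replicate 1) and in a fit of only the subtypes compared (adjusted p = 0.0548). Among the genes of TGF-β activation, Mmp14 differed by 6.20 (adjusted p = 3.72e-06), with 0.115 CPM in splenic CD8+ DCs as the lowest group. Itgb5 differed by 1.91 (adjusted p = 0.00333) and rose in both lineages, by 3.67 and 1.76. Ltbp2 differed by -2.12 (adjusted p = 0.0132) and went in opposite directions, with -1.04 in DC1 and 1.08 in DC2, both past the threshold.

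Among the signalling genes, the type I receptor gene Acvrl1 also went in opposite directions, with -0.96 in DC1 and 1.21 in DC2 (difference -2.16, adjusted p = 1.90e-04). Bambi, which encodes a receptor without a kinase, differed by -2.59 (adjusted p = 0.0437), with neither organ difference past the threshold. Zfyve9 differed by -1.40 (adjusted p = 0.0181), and Fkbp1a, whose product binds type I receptors, by -1.39 (adjusted p = 0.0260).

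Among the retinoic acid genes, 3 that rose in both lineages rose more in DC1, Rarb by 2.58 (adjusted p = 0.0133), Fabp5 by 1.91 (adjusted p = 0.00230) and Dhrs3 by 1.65 (adjusted p = 0.00956). These 3 were lower in splenic CD8+ than in splenic CD4+ DCs. The receptor gene Rxra differed by -1.77 (adjusted p = 0.0104). Of the tryptophan genes, the amino acid transporter gene Slc7a8 differed by -3.27 (adjusted p = 0.00845) and Kmo by -1.29 (adjusted p = 0.0283).

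Of the other Treg genes, the ligands of PD-1 stood out. Pdcd1lg2 differed by 5.51 (adjusted p = 5.54e-07) and Cd274 by 2.68 (adjusted p = 8.34e-06). Cd274 was at 41.3 CPM in splenic CD8+ DCs and between 244 and 372 CPM in the other DCs. Lgals1, galectin 1, differed by -2.33 (adjusted p = 0.00757), and Entpd1, the ectonucleotidase CD39, by -1.63 (adjusted p = 0.00538) with a fall in both lineages.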

How the results depend on the processing

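The calls for Itgb8 and Aldh1a2 between organs, Tgfb1 between organs and within the LN, and Itgb8 within the LN held in every alternative run. Of 368 values for single genes under settings other than leaving out a library, 339 kept direction and call, 8 lost the call, 18 gained it and 3 turned sign. The 18 include Ido1 in monocytes minus splenic CD8+ DCs with the replicate block, which lay at the threshold (adjusted p = 0.05). Of 690 values with a library left out, 627 kept both, 29 lost the call, 15 gained it and 19 turned sign. Every value that turned sign was one that did not pass the threshold. The cause of these changes was not tested.

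The number of the 7 genes past the threshold moved by over 1.5 times in 3 comparisons. For splenic CD8+ minus CD4+ DCs it was 2, and 1 in a fit of only those subtypes, and 1 to 4 with a library left out. For the difference between lineages it was 1, and 2 with limma, 2 without a filter, 0 with only the subtypes compared and 2 with the replicate block, and 0 to 2 with a library left out. For monocytes minus splenic CD4+ DCs it was 4, and 2 to 5 with a library left out. Over all genes, LN CD103+ minus LN CD11b+ DCs gave 1872, and 1216 to 2171 with a library left out, the lowest without LN CD103+ replicate 2. With the replicate block, 8 genes of the retinoic acid list passed between the splenic DCs (5 without it) and 8 of the other Treg genes differed between lineages (5 without it). With the block, 32.1% of all genes passed in the first of these comparisons (27.4% without it) and 14.9% in the second (11.2% without it).

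With a library left out, values that turned sign ranged, for LN CD11b+ minus splenic CD4+ DCs, from -0.33 to 0.10 for Tgfbr1 and from -0.27 to 0.43 for Tgfbr2. They ranged from -0.33 to 0.04 for Aldh1a2 within the LN and from -1.17 to 0.37 for Aldh1a2 within the spleen. For the difference between lineages they ranged from -0.47 to 5.34 for Itgb8, from -0.56 to 0.98 for Aldh1a2 and from -1.86 to 0.41 for Ido1, and for Ido1 in monocytes minus splenic CD4+ DCs from -0.96 to 1.83. In the difference between lineages, Aldh1a2 was 0.04 and Ido1 0.11 with the replicate block, and Ido1 was 0.77 with limma.

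Where the replicate numbers were taken to pair the libraries, blocked calls were compared with the main ones in 3 direct comparisons. These were LN CD11b+ minus splenic CD4+, LN CD103+ minus LN CD11b+, and splenic CD8+ minus splenic CD4+ DCs. There the block changed the calls of Ido1 given above and no other call of the 7 genes. The block was also fitted for LN CD103+ minus splenic CD4+ DCs, whose blocked values are not reported. The difference between lineages combines the pair of LN DCs with the pair of splenic DCs, and for it the block added Tgfbr2 (-1.28, adjusted p = 0.0285). Elsewhere libraries share only a number, with correlations of same-numbered libraries from -0.04 upward, and in 6 of 10 pairs of subtypes every library correlated best with its own number, a hint from the data and not from the design. There the block added Tgfbr1 (0.58, adjusted p = 0.0168) for LN CD103+ minus splenic CD8+ DCs, and put Ido1 at the threshold for monocytes minus splenic CD8+ DCs (-2.09, adjusted p = 0.05). Depth limits Ido1 and Ido2 most, with 218 and 29 counts, and the splenic levels of Itgb8. Groups of 3 are too small to single out a library by its distance from the others.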
